A study of Drosophila melanogaster with 18 samples.

Results

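Aminoacyl-tRNA synthetases are the enzymes that charge each tRNA with its amino acid, and their mRNAs were followed here in heads of flies with and without the microRNA miR-210. The members were taken by name: every row of the head RNA-seq count table whose deposited symbol or current annotation symbol begins with Aats-, or joins an amino acid code to RS, with or without -m for the mitochondrial enzyme. This gave 33 of the 15406 rows, of which 18 were grouped as cytoplasmic and 15, with -m in the current symbol, as mitochondrial synthetases. Of the 33 rows, 31 were matched to the annotation by gene identifier and 2 by an older name (LeuRS and PheRS-m). The annotation names 35 such genes, and AspRS and HisRS were not analysed here. All 33 passed the filter on low counts, so each member has a test.

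The study profiled miRNAs in tissues of wild-type Drosophila melanogaster and then asked which head mRNAs change when miR-210, a microRNA of the adult nervous system and eye, is removed. Heads of adult flies were collected 1 h after eclosion, with 3 libraries per genotype, wDah (white Dahomey, the wild-type stock, called control below) and miR-210Δ. The 12 small RNA libraries of the series hold no mRNA and were not used here. The miR-210Δ allele was made with CRISPR/Cas9 and a pair of guide RNAs flanking the miR-210 gene, and the study backcrossed its transgenic lines into a Dahomey wild-type stock that carries the endosymbiont Wolbachia. Both genotypes were labelled with strain wDah. The study's general protocol names once-mated females, but the labels of the head libraries do not state a sex or say whether replicates were separate collections of flies, so p-values measure only the spread between these libraries, which may be technical.

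A synthetase activates its amino acid with ATP and transfers it to the matching tRNA, which elongation factor eEF1A in the cytoplasm or EF-Tu in the mitochondrion then carries to the ribosome. In Drosophila both sets of enzymes are encoded in the nucleus, mostly by separate genes. In animals, several cytoplasmic enzymes are held together with the scaffold proteins AIMP1, AIMP2 and AIMP3 in a multi-synthetase complex. In mammals, uncharged tRNA activates the kinase GCN2, and the transcription factor ATF4 that follows raises the transcription of many cytoplasmic synthetase genes. The fly ATF4 gene is cryptocephal (crc).

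The libraries held 17992976 to 21315973 counts. The mir-210 hairpin had 0 counts in all 6 libraries, so this poly(A) table cannot check the genotype labels. Control replicate 3 was unlike the controls numbered 1 and 2, from which it differed with chi-square values over degrees of freedom of 22.5 and 19.4, while those libraries differed from each other with 3.96. Its summed muscle marker level was 23838 CPM (counts per 1e+06 counts of the library), while the other 5 libraries held 15077 to 17842, and the flight muscle gene TpnC4 had at most 5 counts and was at 0 in a library of each genotype. All 5 photoreceptor markers (ninaE, trp, norpA, chp and inaD) were lower in miR-210Δ heads, and their sum was 20122 to 22499 CPM in controls and 12037 to 12396 CPM in mutants. The 4 neuron markers had counts in all 6 libraries, and 0 of the 4 were called. Their sum was 2553 to 2807 CPM in controls and 2608 to 2754 CPM in mutants. Glial marker sums were 1172 to 1215 CPM in controls and 1276 to 1289 CPM in mutants, and fat body sums were 4644 to 5223 and 5014 to 5392 CPM, with 0 single genes called in either list.

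Of the 18 cytoplasmic genes, 7 were lower in miR-210Δ heads (LysRS, IleRS, LeuRS, AsnRS, ThrRS, GluProRS and AlaRS) and 0 were higher by edgeR's quasi-likelihood test, with p-values adjusted over all 9470 genes tested and a threshold of 0.05. Across all genes tested, 6.12% were called lower and 3.97% higher (10.1% in either direction). Of the 15 mitochondrial genes, 0 were called in either direction by edgeR, DESeq2 or limma-voom, and at an unadjusted p under 0.05 there were 0 lower and 2 higher, beside 13.0% lower and 10.3% higher of all genes tested. The median log2 fold change, miR-210Δ over control, was -0.09 for the cytoplasmic genes, 0.02 for the mitochondrial genes and 0.00 for all genes. In whole heads, fewer cells of a type and less RNA per cell cannot be told apart. The photoreceptor markers moved in the same direction as the lower synthetases, and their part in the result was not tested. Without control replicate 3 the counts were again 7 and 0.

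**Figure D1:**
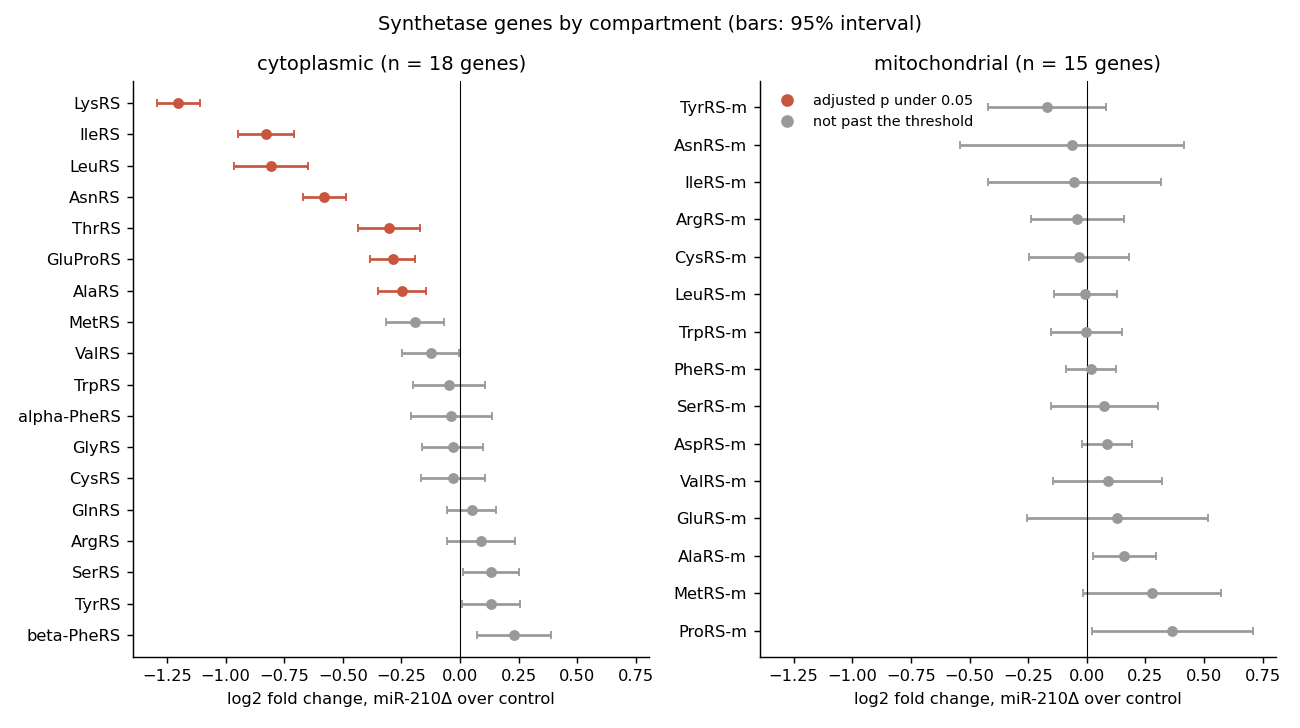
Log2 fold change (miR-210Δ over control) of each synthetase gene on the horizontal axis, with 95% intervals from the edgeR fit, for the 18 cytoplasmic genes on the left and the 15 mitochondrial genes on the right. Red points passed an adjusted p of 0.05, and the 7 red points are all cytoplasmic and all below 0, from LysRS at -1.20 to AlaRS at -0.25.

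Levels in single libraries are given as normalised counts, the counts scaled by library size and TMM factor to the mean library. LysRS, the lysyl-tRNA synthetase (FBgn0027084, chromosome X, 9606363 to 9608884), held 2627, 2761 and 2612 normalised counts in the control libraries and 1131, 1189 and 1161 in the miR-210Δ libraries. The lowest control stood far above the highest mutant. The mean fell from 2667 ± 82.0 to 1160 ± 29.2 (SD, n = 3 each), 43.5% of the control mean, with a log2 fold change of -1.20 (SE 0.0421, edgeR adjusted p = 2.29e-08). Of the 9470 genes, 98 had a log2 fold change as low or lower, LysRS among them. LysRS lies 8519 kb from mir-210 on the same chromosome arm. Of its 7 tested neighbours within 50 kb 1 was called, beside 10.1% of all genes tested.

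IleRS, which charges isoleucine (FBgn0027086, chromosome arm 3L, 22288665 to 22292810), had 2155, 2059 and 1923 normalised counts in controls and 1193, 1177 and 1087 in mutants. Its groups did not overlap, and the mutant mean was 56.3% of the control mean. The log2 fold change was -0.83 (SE 0.0541, edgeR adjusted p = 2.64e-06). LeuRS, which charges leucine (listed as FBgn0053123, chromosome arm 2L, 3510328 to 3514656), had 1325, 1202 and 1080 normalised counts in controls and 687, 718 and 658 in mutants. The controls were more spread than for the other 6 genes, with control replicate 3 the lowest, and all of them still lay above every mutant. The log2 fold change of LeuRS was -0.81 (SE 0.0722, edgeR adjusted p = 3.52e-05), and without control replicate 3 it was -0.88.

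AsnRS, the asparaginyl-tRNA synthetase (FBgn0086443, chromosome arm 2L, 19129469 to 19131954), gave 1436, 1390 and 1389 normalised counts in controls and 937, 945 and 938 in mutants. The 3 mutant libraries were almost equal, with an SD of 4.39. The mutant mean was 66.9% of the control mean, and the log2 fold change was -0.58 (SE 0.0415, edgeR adjusted p = 5.93e-06). These 4 genes, LysRS, IleRS, LeuRS and AsnRS, also passed a test against a fold of 1.2 in place of no change.

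The other 3 fell by less. ThrRS, which charges threonine (FBgn0027081, chromosome arm 2L, 12103751 to 12107170), had 1406, 1524 and 1435 normalised counts in controls and 1160, 1280 and 1095 in mutants. The groups were separate, with a log2 fold change of -0.30 (SE 0.0599, edgeR adjusted p = 0.00747). GluProRS, a fused enzyme that charges both glutamate and proline (FBgn0005674, chromosome arm 3R, 23952136 to 23958391), had 1672, 1611 and 1688 in controls and 1376, 1386 and 1307 in mutants, again without overlap. Its log2 fold change was -0.29 (SE 0.0430, edgeR adjusted p = 0.00128). GluProRS shares 905 exon bases with the antisense gene asRNA:CR46092, and since the counter's strand setting is not given in the sources used here, reads of the pair cannot be told apart. AlaRS, which charges alanine (FBgn0027094, chromosome arm 2L, 8378262 to 8381764), had 1191, 1168 and 1193 in controls and 993, 1039 and 958 in mutants, and the groups did not overlap. The log2 fold change of AlaRS was -0.25 (SE 0.0460, edgeR adjusted p = 0.00540). Against a fold of 1.2, ThrRS, GluProRS and AlaRS were no longer past the threshold (edgeR adjusted p = 1.00 each).

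**Figure D2:**
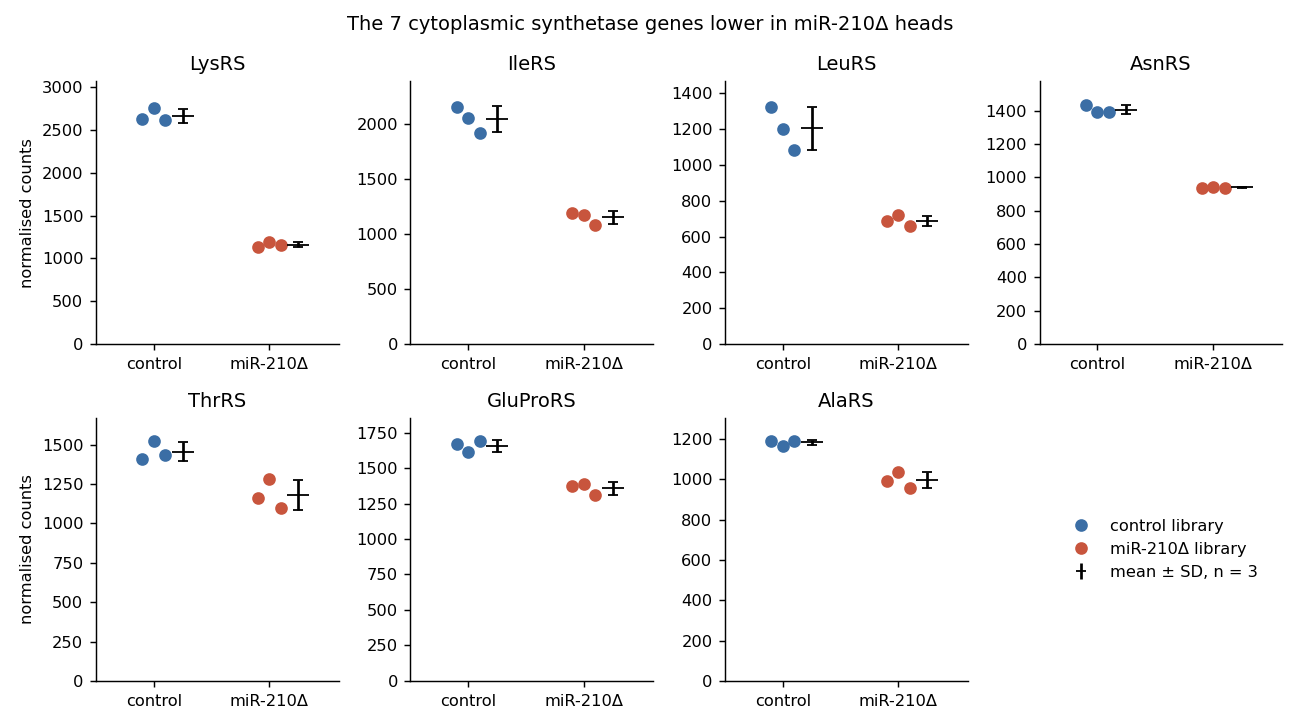
Normalised counts in each of the 6 head libraries for the 7 cytoplasmic synthetase genes that were lower in miR-210Δ heads, with the vertical axis from 0 in each panel. Blue points are control and red points miR-210Δ libraries, and black bars give the mean ± SD of 3 libraries. In every panel the 3 red points lie below the 3 blue points. The gap between the means is widest in LysRS (2667 against 1160) and narrowest in AlaRS (1184 against 997).

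A microRNA lowers the mRNAs it targets, so its loss would raise direct targets, and the search for its matches was made over all 33 synthetase genes. The miR-210-3p arm, read from the Dm6 genome of RefSeq at X:18128270-18128292, plus strand, is shown as DNA letters because its matches were searched. Capitals mark the seed by the usual definition, bases 2 to 8 of the annotated arm.
miR-210-3p: cTTGTGCGtgtgacagcggctat
The word that pairs with the seed, CGCACAA, was in the annotated 3′ UTRs of 0 of the 33 synthetase genes and of 2.88% of the 12584 genes searched. A match to bases 3 to 9, ACGCACA, was also in 0 of the 33 (3.91% of all genes). The shorter match to bases 2 to 7, GCACAA, was in ProRS-m alone of the 33 (12.5% of all genes). That site, at 3L:2650267-2650272 on the minus strand, is shown with its flanks, the match in capitals.
ProRS-m: gaacatagccaGCACAAaaagagtctag
The study names other letters as the functional seed, TGCGTGT in DNA. They are bases 5 to 11 of the arm above, and their match, ACACGCA, was searched as an alternative added after the data were seen. It was in SerRS-m alone of the 33 (4.57% of all genes), at 3R:15343106-15343112 on the plus strand.
SerRS-m: gggtatattgtACACGCAactgtgtttgt
No match says only that these letters are not in the annotated 3′ UTR.

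The promoter window, from 250 bases before to 50 after the annotated gene start, was searched on both strands for 3 words. The first was TGATGNAA, the core of the composite element that mammalian ATF4 binds with C/EBP partners. It was in 2 of the 33 windows (CysRS and beta-PheRS) and in 4.03% of 12976 genes, and in 0 of the 7 lower genes. This 0 depends on the window's edge, since a match in AsnRS began at its last base and ran past it. The E-box CACGTG was in LeuRS-m and GlnRS (4.18% of all genes) and in 0 of the 7. The DNA replication-related element core TATCGATA, known in flies from promoters of growth and replication genes, was in 5 of the 33 (TrpRS, IleRS, ArgRS, AlaRS and PheRS-m) and in 9.47% of all genes, and 2 of the 5 are among the 7 lower genes.

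A wider window, from 1000 bases before to 500 after the gene start, was searched after the first result was seen and is a description with no test. In it, TGATGNAA was found in 6 of the 7 lower genes, 4 of the 11 other cytoplasmic genes and 3 of the 15 mitochondrial genes. Of all 9220 tested genes with a window 20.0% held the word, as did 20.5% of all genes called lower. The exact form TGATGCAA was in 5 of the 7 lower genes (71.4%), 2 of the 11 other cytoplasmic genes (18.2%), 1 of the 15 mitochondrial genes (6.67%), 4.86% of all tested genes and 6.58% of all genes called lower. In the list of 9 ATF4 pathway genes described below, TGATGNAA was in 1 (Gcn2, 11.1%) and TGATGCAA in 0. Most matches of the 7 lower genes lay downstream of the gene start, within the first 500 bases. The sequences around them are shown for that reason, read from the Dm6 genome of RefSeq on the strand of each gene. Capitals mark the match, which reads TTGCATCA or TTTCATCA where it lies on the other strand.
LysRS, X:9608561-9608590, 306 bases after the start: tgcagttctgcTGATGAAAtacgctgctta
IleRS, 3L:22288946-22288975, 293 bases after: gccgcatacgaTTGCATCAgccgatcgcca
LeuRS, 2L:3514437-3514466, 202 bases after: gacgagccggcTGATGCAAttggccgcggc
AsnRS, 2L:19131887-19131916, 50 bases after: caacttgaagcTGATGCAAttttgtgcgta
ThrRS, 2L:12104232-12104261, 493 bases after: ttgctactctaTTGCATCAgccataaaacg
GluProRS, 3R:23958093-23958122, 281 bases after: accctcttttaTTGCATCAgccccggtatc
GluProRS, 3R:23958310-23958339, 64 bases after: aaaagccgaaaTTTCATCAgtttgatttca
The matches of IleRS, LeuRS and ThrRS and the farther one of GluProRS lay in introns, and those of LysRS and AsnRS and the nearer one of GluProRS in untranslated exon sequence. AsnRS had a second match at position -672 from its start, inside the neighbouring gene DCTN6-p27, and AlaRS had none in this window. Of the cytoplasmic genes not called, MetRS (in an intron), ArgRS (in coding sequence, with a second match upstream), CysRS and beta-PheRS held the word. A match describes letters and is not evidence of binding.

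The 11 cytoplasmic genes that did not pass the test ran from MetRS at -0.19 to beta-PheRS at 0.23 in log2 fold change. MetRS, which charges the initiator as well as the elongator methionine tRNA, had 608, 576 and 578 normalised counts in controls and 515, 533 and 494 in mutants. Its groups did not overlap, but the edgeR adjusted p was 0.0573. The gene for the beta subunit of phenylalanyl-tRNA synthetase, beta-PheRS, had 311, 305 and 324 in controls and 366, 390 and 345 in mutants, with every mutant above every control and an edgeR adjusted p of 0.0713. TyrRS, which charges tyrosine, had 1080, 1040 and 1035 in controls and 1082, 1246 and 1129 in mutants (log2 fold change 0.13, edgeR adjusted p = 0.193), so its lowest mutant was just above its highest control.

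The partner subunit alpha-PheRS was at -0.04 (95% interval -0.21 to 0.14), with overlapping groups, and without control replicate 1 it was at 0.02. ValRS, for valine, was at -0.13 (edgeR adjusted p = 0.199) and SerRS, for serine, at 0.13 (edgeR adjusted p = 0.176). TrpRS was at -0.05, GlyRS at -0.03 and CysRS at -0.03. GlnRS was at 0.05 and ArgRS at 0.09. CysRS, the cytoplasmic gene with the lowest level per length in controls, had 401, 381 and 391 normalised counts in controls and 379, 379 and 391 in mutants, which overlap. Over the 18 cytoplasmic genes, the 3 mutant libraries lay below all controls in 9 and above all controls in 3, against 15.0% and 13.2% of all genes tested.

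Among the 15 mitochondrial genes the largest difference was in ProRS-m, with 67.3, 66.0 and 52.7 normalised counts in controls and 80.8, 82.4 and 76.7 in mutants. The mutants were all higher, with a log2 fold change of 0.36 (95% interval 0.02 to 0.71, edgeR adjusted p = 0.188). MetRS-m, which had the lowest level per length of all 33 genes in controls, held 99.4, 93.9 and 98.1 in controls and 117, 134 and 102 in mutants (log2 fold change 0.28, edgeR adjusted p = 0.241), so that its lowest mutant was close to its highest control. TyrRS-m had 196, 176 and 196 in controls and 174, 187 and 143 in mutants, and its groups overlapped (log2 fold change -0.17, edgeR adjusted p = 0.429). PheRS-m, the most abundant mitochondrial member, had 788, 761 and 748 in controls and 755, 793 and 779 in mutants, an overlap with a log2 fold change of 0.02.

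The remaining mitochondrial genes lay close to 0. AlaRS-m was at 0.16 and AspRS-m at 0.09, both with every mutant above every control and neither past the threshold (edgeR adjusted p = 0.142 and 0.323). GluRS-m was at 0.13, ValRS-m at 0.09 and SerRS-m at 0.07. TrpRS-m was at 0.00, LeuRS-m at -0.01, CysRS-m at -0.03, ArgRS-m at -0.04, IleRS-m at -0.05 and AsnRS-m at -0.06, and the groups of these 6 overlapped. In all, 4 of the 15 had every mutant above every control and 0 had every mutant below. Of all genes tested, 13.2% and 15.0% did.

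Mitochondrial synthetase mRNAs were scarcer, and their fold changes were measured less sharply. The median SE of the log2 fold change was 0.104 for the mitochondrial genes and 0.0564 for the cytoplasmic genes. The lowest bound of any mitochondrial 95% interval was -0.54, for AsnRS-m, which had 54.9 to 98.3 normalised counts in controls. Therefore none of the 15 intervals reached the log2 fold change of AsnRS, LeuRS, IleRS or LysRS, although falls as small as that of AlaRS lay within several of them. Opposite-strand genes share exon bases with 10 mitochondrial and 4 cytoplasmic members, with the longest mitochondrial overlaps in SerRS-m (356 bases, with Nagk), ArgRS-m (325 bases, with mRpS9) and CysRS-m (302 bases, with CG13016). Of the 7 lower genes, GluProRS alone had such an overlap.

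Cytoplasmic and mitochondrial enzymes for the same single amino acid formed 13 pairs, which were compared within each library. The log2 ratio of cytoplasmic to mitochondrial normalised counts was lower in every mutant library than in every control library in 4 of the 13 pairs (LeuRS, IleRS, MetRS and AlaRS) and higher in 2 (TyrRS and beta-PheRS, the latter against PheRS-m). The 7 other pairs overlapped. No share over pairs of other genes was computed to set beside these counts. Of single genes tested, 15.0% had every mutant below every control and 13.2% had every mutant above. LeuRS, IleRS and AlaRS were themselves called lower, so their ratios are not separate evidence. The ratio differed by -0.80 for LeuRS, -0.78 for IleRS, -0.46 for MetRS and -0.41 for AlaRS on the log2 scale. AsnRS over AsnRS-m differed by -0.54, but its groups overlapped, and AsnRS-m ranged from 54.9 to 98.3 normalised counts among controls. A two-sided exact permutation test of 3 against 3 libraries cannot go below 0.1, and each of the 6 separated pairs gave that value (0.217 adjusted over the 13 pairs). The annotation names no -m gene for Gln, Gly, His, Lys or Thr, so LysRS, ThrRS, GlnRS and GlyRS had no pair. Genes were grouped by symbol, and whether any grouped as cytoplasmic also serve the mitochondrion was not tested. GluProRS, which charges both glutamate and proline, was not compared with GluRS-m or ProRS-m.

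**Figure D3:**
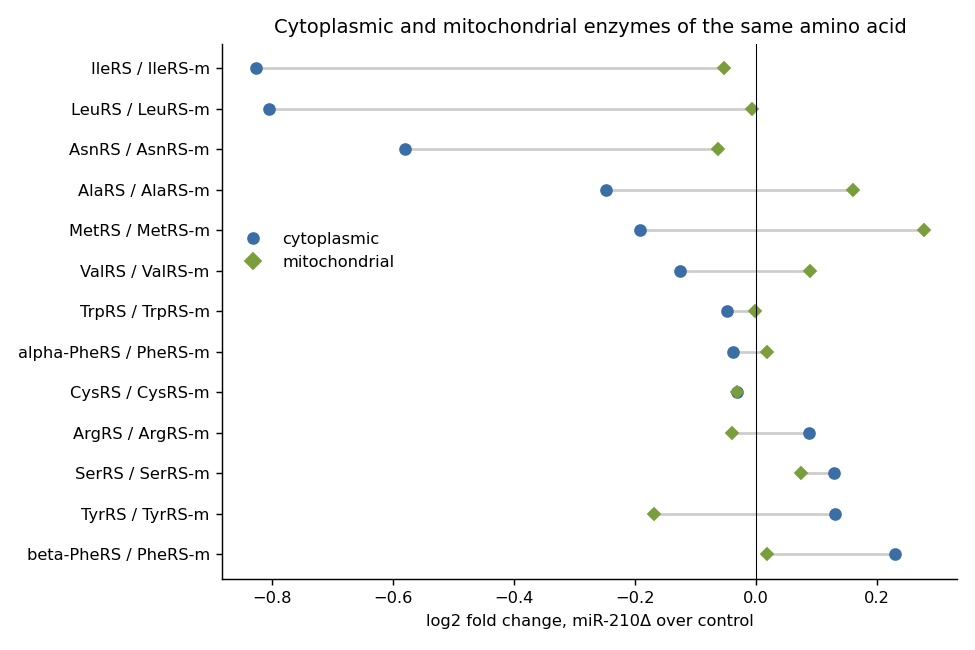
Log2 fold change (miR-210Δ over control) of the cytoplasmic enzyme (blue circles) and of the mitochondrial enzyme (green diamonds) for the same amino acid, 1 row per pair, with PheRS-m in 2 rows for its alpha and beta cytoplasmic counterparts. The grey line is the distance between the enzymes of a pair, longest in LeuRS and IleRS, where the mitochondrial genes stood at -0.01 and -0.05.

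Between genes, levels were compared as CPM per kilobase of merged exon. Here and in the sums over genes that follow, CPM was scaled by the TMM factor, unlike in the marker sums above. In controls LysRS was the highest of the 33 at 60.5 ± 1.86 (SD, n = 3), followed by TyrRS at 30.5 ± 0.715, AsnRS at 30.4 ± 0.576, IleRS at 27.0 ± 1.54, ThrRS at 25.8 ± 1.10 and PheRS-m at 25.8 ± 0.686. TyrRS and AsnRS did not differ beyond their spread, nor did the next 3 genes in this order. In miR-210Δ heads TyrRS came first at 33.5 ± 2.45 and LysRS was next at 26.3 ± 0.663, level with PheRS-m at 26.1 ± 0.655. IleRS moved from rank 4 to 9 and LeuRS from 10 to 18. The lowest cytoplasmic level in controls was 8.20 ± 0.203 (CysRS) and the lowest mitochondrial level was 1.16 ± 0.0340 (MetRS-m). The median level in controls was 15.7 for cytoplasmic and 3.56 for mitochondrial genes.

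**Figure D4:**
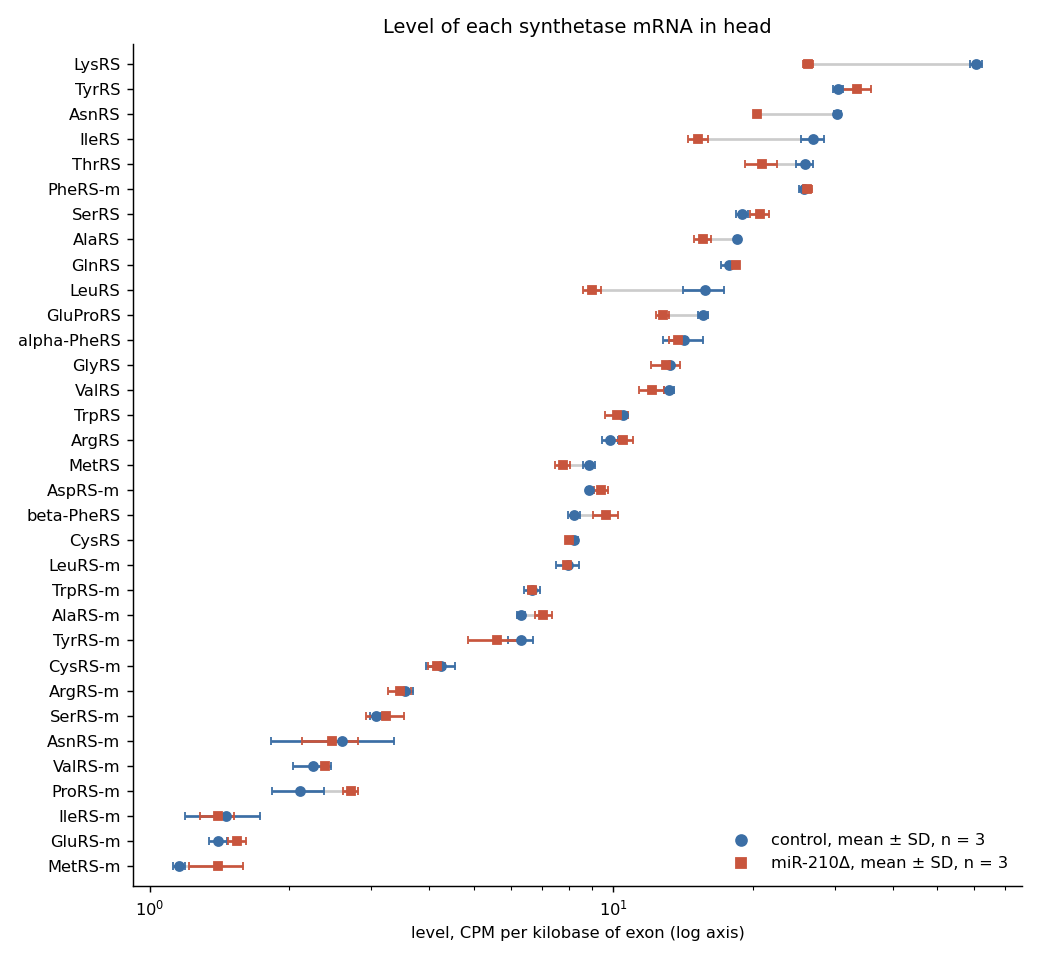
Level of each of the 33 synthetase mRNAs in CPM per kilobase of exon on a log axis, ordered by the control mean, with control in blue circles and miR-210Δ in red squares (mean ± SD of 3 libraries). The 15 genes of the mitochondrial enzymes fill most of the lower end, and LysRS, highest in controls at 60.5, falls to 26.3 in mutants.

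Summed over genes, cytoplasmic synthetase mRNAs made up 939 ± 17.5 CPM in controls and 730 ± 25.8 CPM in mutants (SD, n = 3 each), with ranges of 923 to 958 and 709 to 759 that do not overlap. Split by the call itself, so that the split is a description and no evidence of where the difference lies, the 7 lower genes summed to 597 CPM in controls and 384 CPM in mutants. The other 11 cytoplasmic genes summed to 342 ± 8.36 and 346 ± 13.3 CPM, which overlap. Mitochondrial synthetase mRNAs summed to 202 ± 2.51 CPM in controls and 208 ± 3.16 CPM in mutants, with ranges of 199 to 204 and 206 to 212 that do not overlap.

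By its make-up in mammals, the multi-synthetase complex holds 7 of the cytoplasmic members here, GluProRS, IleRS, LeuRS, MetRS, GlnRS, LysRS and ArgRS. Of these, 4 were lower and 0 higher, beside 6.12% and 3.97% of all genes tested, with a median log2 fold change of -0.29. Of the 11 outside the complex, 3 were lower (AsnRS, ThrRS and AlaRS) and 0 higher, with a median of -0.04, and whether these shares differ was not tested. GlnRS and ArgRS, both complex members, were at 0.05 and 0.09 and did not pass the test (edgeR adjusted p = 0.600 and 0.479). By the fold of the catalytic domain, 2 of 9 class I and 4 of 8 class II cytoplasmic genes were lower, with GluProRS holding a domain of each class.

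Genes that work beside the synthetases were followed as a list of 15, of which 14 had a row and mEFTu1 was not analysed here. The list holds the AIMP scaffolds, the mitochondrial amidotransferase GatA, GatB and GatC, the synthetase-like protein Slimp and the elongation factors that deliver charged tRNA. In it 2 were lower and 0 higher, beside 6.12% and 3.97% of all genes tested, with a median log2 fold change of -0.05. The gene with the highest level in the list, eEF1alpha1, encodes eEF1A and had 57899 to 58547 normalised counts in controls and 56513 to 57298 in mutants. Its groups did not overlap, but its log2 fold change of -0.03 did not pass the test (edgeR adjusted p = 0.661). The other eEF1A gene, eEF1alpha2, had 9519, 9357 and 10279 normalised counts in controls and 7980, 7561 and 7732 in mutants. Its groups did not overlap (log2 fold change -0.32, edgeR adjusted p = 7.90e-04). The exchange factor gene eEF1beta had 4047, 4107 and 4269 in controls and 3525, 3712 and 3388 in mutants, also apart (log2 fold change -0.23, edgeR adjusted p = 0.00624). AIMP1, AIMP2 and AIMP3 were at 0.01, 0.13 and -0.19 with adjusted p-values of 0.946, 0.276 and 0.0959 (edgeR).

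A second list of 11 genes follows the amino acid and stress response around ATF4, and 9 of them had a row. AsnS and Psat were not analysed here. Of the 9, 4 were lower and 0 higher, with a median log2 fold change of -0.09. Of all genes tested, 6.12% were lower and 3.97% higher. The ATF4 gene itself, crc, had 27315, 28090 and 28198 normalised counts in controls and 24993, 24559 and 25143 in mutants, with the groups apart. Its log2 fold change was small at -0.16 (SE 0.0380, edgeR adjusted p = 0.0197). PEK, the kinase that phosphorylates eIF2alpha under stress of the endoplasmic reticulum, was at -0.19 (edgeR adjusted p = 0.0218), and the pseudokinase gene trbl at -0.37 (edgeR adjusted p = 0.00259). Nmdmc, a mitochondrial enzyme of folate metabolism, fell by 0.32 on the log2 scale (edgeR adjusted p = 9.24e-04). The amino acid sensor Gcn2 was at 0.06, the ATF4 target Thor at -0.09, Shmt and aay at -0.06 and the phosphatase subunit PPP1R15 at -0.05, and none of these 5 passed the threshold (edgeR adjusted p from 0.461 to 0.655). The count of lower genes in this list depended on single libraries. It was 5 without control replicate 3, 2 without control replicate 2, and 2 without any of the 3 mutant replicates, while DESeq2 gave 3.

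**Figure D5:**
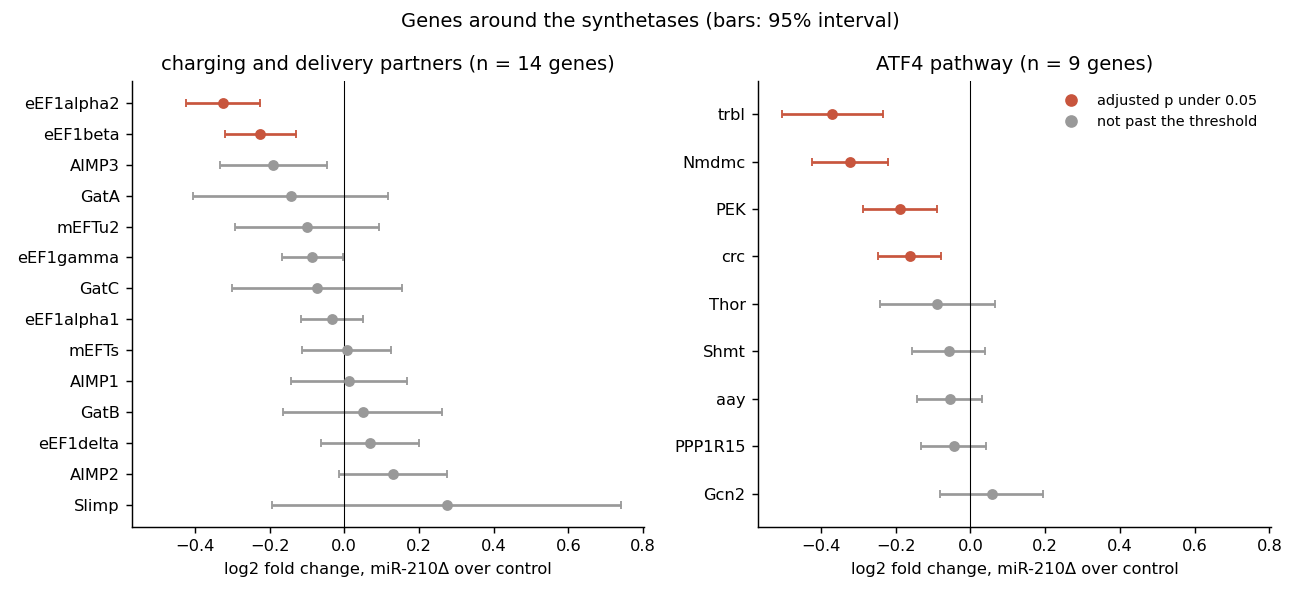
Log2 fold change (miR-210Δ over control) with 95% intervals for 14 genes of tRNA charging and delivery on the left and 9 genes of the ATF4 pathway on the right, with genes past an adjusted p of 0.05 in red. The red points are eEF1alpha2 and eEF1beta on the left and trbl, Nmdmc, PEK and crc on the right, all between -0.37 and -0.16.

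The surroundings of the lower genes in the genome were also counted. Of all genes tested, 10.1% were called in either direction. Within 50 kb, IleRS had 8 tested neighbours of which 0 were called, LeuRS 13 with 2 called (both lower), AsnRS 12 with 2 called (1 in each direction) and ThrRS 14 with 2 called (1 in each direction). GluProRS had 17 with 3 called (all higher) and AlaRS 23 with 2 called (1 in each direction). None of the 7 lower genes had a called neighbour with an absolute log2 fold change of at least 2. The other 2 members on the X chromosome that carries mir-210, ArgRS (2284 kb away) and alpha-PheRS (9983 kb away), were not called.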

How the data were processed

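Head RNA was made into stranded poly(A) libraries and read from one end. Per the methods and the submitters' processing notes, Trim Galore 0.3.7, TopHat2 and SAMtools were used to trim and align reads to Dm6 and drop multi-mapped ones, and the authors deposited raw gene counts. The methods name SeqMonk and R for the analysis, but which program made the counts, and with which annotation and strand option, is not given in the sources used here. The authors' DESeq2 columns (mean, log2 fold change, error, statistic and p-values) were not used, and of that deposited table only the gene symbols were. Every column of head counts was used.

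Counts were filtered with filterByExpr, normalised by TMM and tested in R 4.3.3 with edgeR 4.0.16 over 9470 genes, with Benjamini-Hochberg adjustment. Replicates varied with a common dispersion of 0.00307 (a coefficient of variation of 5.54%). The procedure was tested on simulated data. Members and lists were chosen with earlier results of these data known. By the rule for named genes, library values are given for called members, the 3 uncalled members of each compartment with the largest change, the highest and lowest levels per length, and members whose call changed. Alternatives were DESeq2 1.42.0, limma-voom (limma 3.58.1), other size factors and count filters, a replicate block, each library left out, and a fold of 1.2. Exon lengths, UTRs and gene starts came from Ensembl's annotation of Dm6 (BDGP6) and sequences from RefSeq's assembly. Tables and plots used pandas 2.3.3 and matplotlib 3.10.9 in Python 3.11.15.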

Additional observations from a re-analysis of the deposited data

How the results depend on the processing

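The same 7 cytoplasmic genes, and no other synthetase gene, were called under DESeq2, limma-voom, RLE and upper-quartile factors, no filter, a minimum of 10 counts in 3 libraries, the replicate block and each of the 6 left-out libraries. Against a fold of 1.2, 4 of the 7 were called, and over all 14 alternatives the adjusted p (edgeR, DESeq2 or limma) ran from 0.00125 to 1.00 for ThrRS, from 1.80e-04 to 1.00 for GluProRS and from 0.00301 to 1.00 for AlaRS. Leaving out a library moved the count over all genes between 375 and 755 lower and between 219 and 523 higher, and the ATF4 list between 2 and 5 lower. Upper-quartile factors turned the split of all calls from 580 lower and 376 higher to 501 and 468, while the median of all genes moved by 0.02. Same-numbered libraries of the genotypes had correlations of -0.0801, 0.068 and 0.1045, and differently numbered ones ran from -0.1822 to 0.1388. These values cannot show whether same-numbered libraries were prepared together. With the replicate block 542 genes were lower and 313 higher, with 7 cytoplasmic and 0 mitochondrial members and 3 ATF4 genes. The sign of 9 uncalled members, among them GlyRS, alpha-PheRS and TrpRS-m, changed under at least 1 alternative. On the gene strand alone, TGATGNAA was in 1 promoter window of the 33, and TGATGCAA in 0. The 95% intervals of AsnRS-m, IleRS-m, TyrRS-m and GluRS-m held a fall of the size of that of AlaRS.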
